A study of Mus musculus with 3 samples.

Results

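Dendritic cells (DCs) of the mouse spleen that were sorted from animals with a CD11c-Cre deletion of RBPJ were compared with the Esam(hi) DCs of control animals. The comparison uses 2 of the 3 arrays of the series, 1 array a side, and the remaining array, control Esam(lo) DCs, serves to split the differences. It was made by subtracting the log2 value of the control Esam(hi) array from that of the array labelled RBPJ-deficient, for each probe set that names 1 gene. All 3 groups were CD11c(hi) CD11b+ DCs from mice with floxed RBPJ alleles (RBPJflox/flox) and a GFP reporter in Cx3cr1 (Cx3cr1-GFP+). The controls lacked Cre and were littermates; their cells were sorted as Esam(hi) GFP(lo) or as Esam(lo) GFP(hi). The labelled animals were RBPJflox/flox CD11c-Cre+, and their cells were Esam(lo) GFP(hi) without a separate Esam(hi) subset, per the design text. CD11c-Cre acts in cells that express CD11c, so loss of RBPJ would not be limited to the sorted population. Each array holds RNA from the spleens of 2 to 3 pooled mice after depletion of lymphoid and erythroid cells; ages are not given in the labels. The compared arrays differ in genotype and in Esam phenotype at once, and these cannot be told apart from this pair alone.

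Notch receptors release their intracellular domain when a neighbouring cell presents a ligand, and that domain joins the DNA-bound protein RBPJ to switch on target genes. Without RBPJ, cells cannot carry out this step whichever Notch receptor is engaged. In the spleen, Notch2 signalling is known as a requirement for the Esam-high CD11b+ DCs, which sit near the marginal zone and present antigen to CD4+ T cells, whereas Esam-low CD11b+ DCs share many genes with monocytes.

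With 1 array a group there are no replicates, so the sizes below carry no error and no test, and a gene was called by size. A called gene was at least 2-fold apart (a log2 difference of 1), and its level on the brighter side exceeded background. The background level was set per array from 1196 genes of smell and pheromone receptors, which most tissues do not use, at their 95th percentile, between 6.76 and 7.17 on the log2 scale. For a gene whose level on the dimmer side was no higher than that, the fold is a bound against the background level and is written "at least". Values for 3 arrays are log2 levels in the order control Esam(hi), control Esam(lo), labelled array. They compare 1 gene between arrays and not genes with each other.

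The targeted gene was read first. Rbpj (probe set 10521913) stood at 9.85, 9.85 and 10.04, so the labelled array did not have a lower level of it, and a dimmer probe set (10521911) was below background on each array. It was not examined whether these probes match the exons that Cre removes, so Rbpj does not check the label, and every direction below rests on it. Esam followed the sort, at 7.79 on the control Esam(hi) array and below background on both others, at 6.57 and 6.12. Of 8 defining markers of classical DCs, all 8 were above background on all 3 arrays, among them Zbtb46 (8.38 on each array) and Flt3 (10.99, 11.47 and 11.54), and none was 2-fold apart. The CD11b+ DC genes Irf4 (10.05 on each array) and Sirpa (11.72, 12.16 and 12.16) were also present throughout. The control Esam(hi) array had the narrowest spread of values, with quartiles of 5.48 and 8.08 against 5.39 and 8.31 on the labelled array, and 8175 against 9108 of 19938 genes above background. In RNA from sorted bulk samples, fewer cells of a kind and less RNA per cell cannot be told apart.

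Far more genes were higher than lower on the labelled array. Of 9394 genes above background on at least 1 of the compared arrays, 1203 (12.8%) were 2-fold higher and 110 (1.17%) were 2-fold lower. The largest fold measured above background on both arrays was that of Wfdc17 on the higher side (13.9-fold) and, small RNAs aside, that of the Notch target Dtx1 on the lower side (6.49-fold). The median difference over all tested genes was 0.30, and 6400 genes had a higher value, 1746 a lower one and 1248 exactly the same. This shift went with level. Genes with a mean level of 6 to 7 or of 7 to 8 had a median difference of 0.00, those of 8 to 9 had 0.44, those of 9 to 10 had 0.54, and those of 12 to 13 had 0.33.

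Removing that trend with a smooth curve of the difference on the mean level brought the median over all tested genes to -0.03. Then 417 genes (4.44%) were 2-fold higher and 268 (2.85%) were 2-fold lower. The lower genes were 8.38% of those called on the deposited values and 39.1% of those called with the trend removed; quantile normalization gave 37.7% and centring the arrays on their medians 3.92%. Of the 1203 higher genes 413 (34.3%) stayed 2-fold higher without the trend, and of the 110 lower genes 103 (93.6%) stayed 2-fold lower. The curve lies at or above 0 at most levels, so its removal lowers most differences and by construction costs higher calls rather than lower ones. The call sits in a dense part of the distribution: Krtcap2 (1.0000) and Vps50 (1.0005) lay just inside and Naa20 (0.9998) and Cdc42se2 (0.9997) just outside on the higher side, and Car11 (-1.0010) and Pate11 (-0.9976) on either side of the lower threshold.

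**Figure D1:**
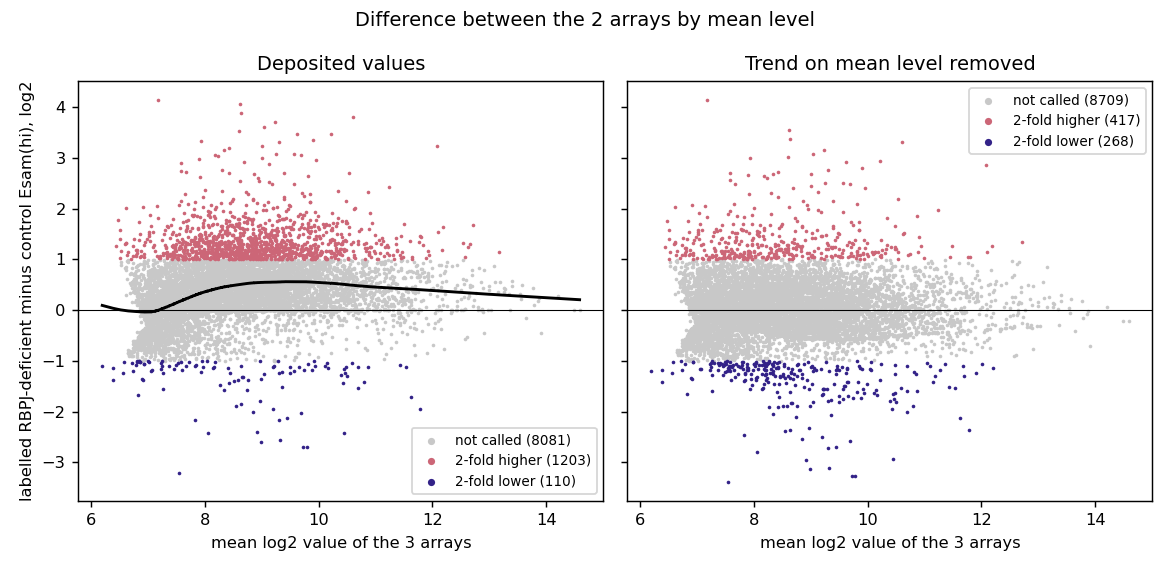
Difference of each of 9394 genes, labelled array minus control Esam(hi) array (log2), against its mean log2 value on 3 arrays, as deposited (left, with the fitted curve in black) and with the curve subtracted (right). Red points are at least 2-fold higher and blue points at least 2-fold lower; the curve stays near 0 at low levels and rises above it from a level of about 8, and the counts go from 1203 higher and 110 lower to 417 and 268.

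The control Esam(lo) array then divided the called genes into classes. A gene was called shared where the control arrays were themselves 2-fold apart in the same direction. It was called particular to the labelled array, as a name for the class, where the control arrays lay within 1.5-fold of each other and the labelled array was at least 2-fold from both. The rest fell in neither class. Both differences subtract the same control Esam(hi) array, so the size of the shared class is a count fixed by the rule and not a separate observation of the same change.

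Of the 1203 higher genes, 977 (81.2%) were shared, 4 (0.333%) were particular to the labelled array and 222 (18.5%) were in neither class. As shares of all genes tested these were 10.4%, 0.0426% and 2.36%. Of the 110 lower genes, 57 (51.8%) were shared, 7 (6.36%) were particular to the labelled array and 46 (41.8%) were in neither class, or 0.607%, 0.0745% and 0.49% of all genes tested. Most genes of neither class missed the shared class narrowly, with a control difference of 1.5- to 2-fold in the same direction (211 of 222 higher and 42 of 46 lower genes). With the trend removed, 306 of the higher and 187 of the lower genes were shared, and 4 and 5 were particular to the labelled array.

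Within the shared class the labelled array sat close to the control Esam(lo) array. Of the 977 shared higher genes, 875 (89.6%) were within 1.2-fold of the Esam(lo) value; 563 went beyond it, 289 stopped short of it and 125 were exactly tied. Of the 57 shared lower genes, 38 (66.7%) were within 1.2-fold, 34 went beyond, 18 stopped short and 5 were tied. An exact tie can come from the median polish of the authors' RMA step, so it does not show equal expression. Only Clec10a among the higher and Jchain among the lower shared genes went a further 2-fold beyond the Esam(lo) array. The labelled array lay at least 2-fold beyond both control arrays for 5 genes on the higher side and 12 on the lower side.

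**Figure D2:**
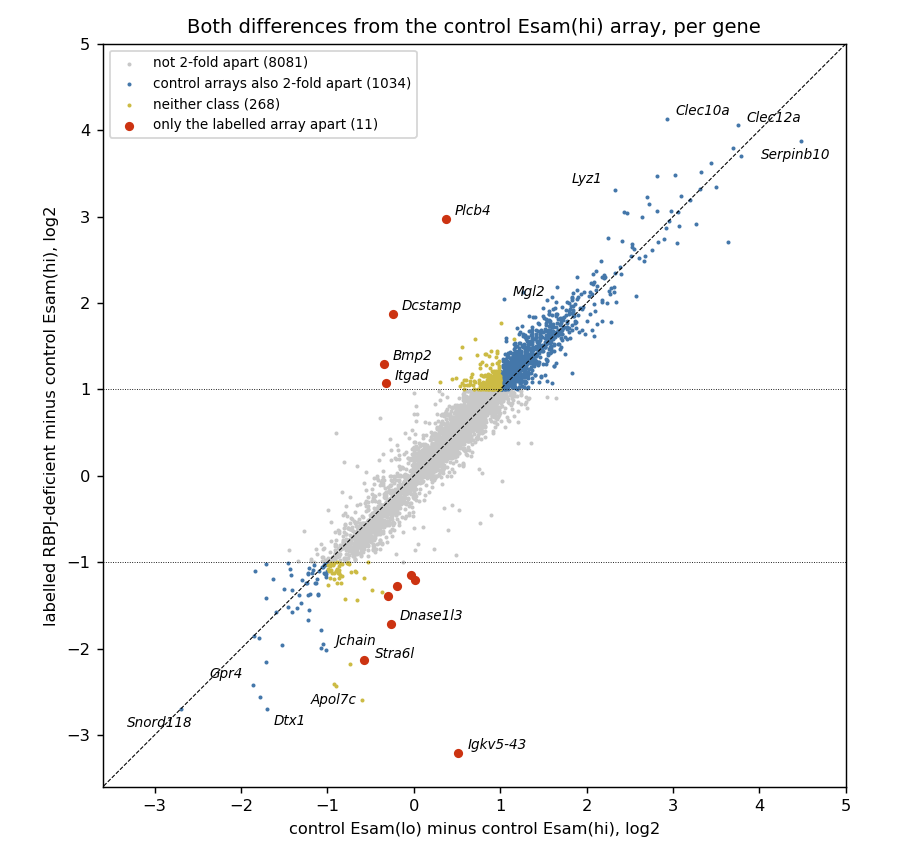
Each point is 1 of 9394 genes: the control Esam(lo) minus control Esam(hi) difference (horizontal, log2) against the labelled minus control Esam(hi) difference (vertical, log2), with dotted lines at 2-fold and a dashed line of equality. Blue points are called genes for which the control arrays also differ 2-fold, red points (11) those for which only the labelled array stands apart, and yellow points the other called genes; the axes share an array, which alone draws points toward the dashed line.

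The 4 genes higher on the labelled array alone were Plcb4, Dcstamp, Bmp2 and Itgad, each near or below background in both control subsets. Plcb4 encodes a phospholipase C of the beta class, which cleaves a membrane phosphoinositide below G protein-coupled receptors. Its levels were 6.78, 7.15 and 9.76, so it was high on the labelled array and near background on the controls. The labelled array was at least 6.05-fold above control Esam(hi) and 6.1-fold above control Esam(lo), and the first difference was 2.98 as deposited and 2.66 with the trend removed. It was the only one of 7 phospholipase C genes above background that was 2-fold apart. That share is near the 14% of all genes tested that were called in either direction. Plcg2 read 10.15, 10.61 and 10.57, and Plcb3 7.91, 8.31 and 8.31.

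Dcstamp, a membrane protein that macrophage-lineage cells need in order to fuse into osteoclasts and giant cells, read 6.50, 6.26 and 8.38. It was above background on the labelled array alone, at least 2.31-fold higher than on control Esam(hi) and at least 3.07-fold higher than on control Esam(lo). Bmp2, a secreted growth factor of the TGF-beta superfamily, read 6.29, 5.94 and 7.59. It too was above background on the labelled array alone; the log2 difference of 1.29 corresponds to a bound of at least 1.34-fold. The receptor gene Bmpr2 differed in another way, at 8.08, 9.44 and 9.44, which places it in the shared class. Itgad, the alpha chain of a leukocyte integrin of the CD11 group, read 6.91, 6.59 and 7.98 and was at least 1.76-fold above control Esam(hi). Itgad has 2 probe sets and was no longer called when they were averaged. All 4 kept their class with the trend removed.

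The 7 genes lower on the labelled array alone were above background in both control subsets, Car1 by the smallest margin. Dnase1l3, a secreted DNase of myeloid cells that digests extracellular chromatin, read 12.28, 12.01 and 10.56. The control arrays were near each other and the labelled array was 3.28-fold below control Esam(hi) and 2.73-fold below control Esam(lo). Among the other 7 nuclease genes above background, Dnase1l1 (7.23, 8.31 and 8.32) and Rnase6 (2.31-fold) were 2-fold higher on the labelled array, beside 12.8% of all genes tested. With the trend removed neither was 2-fold higher. Stra6l, which encodes a receptor for the retinol carrier in plasma, read 10.35, 9.77 and 8.22, a step down on each array in that order. It was 4.38-fold below control Esam(hi) and 2.93-fold below control Esam(lo). Its relative Stra6 read 7.47, 6.88 and 6.88.

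Hic1, a zinc-finger repressor of transcription, read 9.08, 8.78 and 7.69, and the labelled array was 2.63-fold below control Esam(hi). Asb2, the substrate adaptor of a ubiquitin ligase, read 10.88, 10.68 and 9.60 (2.43-fold lower). Adam19, a membrane metalloprotease that sheds surface proteins, read 9.76, 9.77 and 8.54 (2.32-fold lower). For these 3 genes the control arrays were nearly level and the labelled array was the low one. The ADAM proteases that cut Notch receptors lay on the other side: Adam10 read 7.79, 8.83 and 8.94 and Adam17 8.95, 10.07 and 10.26, both shared and higher, and both under 2-fold with the trend removed (0.66 and 0.75).

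Car1, a carbonic anhydrase abundant in erythroid cells, read 7.86, 7.83 and 6.71, the last below background, for a fold of at least 1.99. Of 4 erythroid markers above background Car1 alone was called (median -0.72); Slc4a1 (7.18, 6.52 and 6.37) and Ermap (7.17, 6.78 and 6.54) were near background and dimmest on the labelled array, and Alas2 and Epor were below background on all 3 arrays. The part of erythroid cells in the Car1 difference was not tested. Igkv5-43, an immunoglobulin kappa variable segment, read 8.45, 8.97 and 5.24, the last below background, which bounds the fold at 2.99 or more; it is taken up with the other immunoglobulin genes further on. With the trend removed the class was Adam19, Car1, Igkv5-43, Hap1 and Spint1. Dnase1l3, Stra6l, Hic1 and Asb2 stayed 2-fold lower but left the class because their control difference then passed 1.5-fold. Spint1, a membrane-bound inhibitor of serine proteases, read 10.13, 10.62 and 9.22, and Hap1 read 8.68, 9.45 and 8.13. For both, control Esam(lo) was the highest of the 3 arrays, and the labelled array differed from control Esam(hi) by -0.92 and -0.55 as deposited. Hap1 is one of the genes named after its values were seen.

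**Figure D3:**
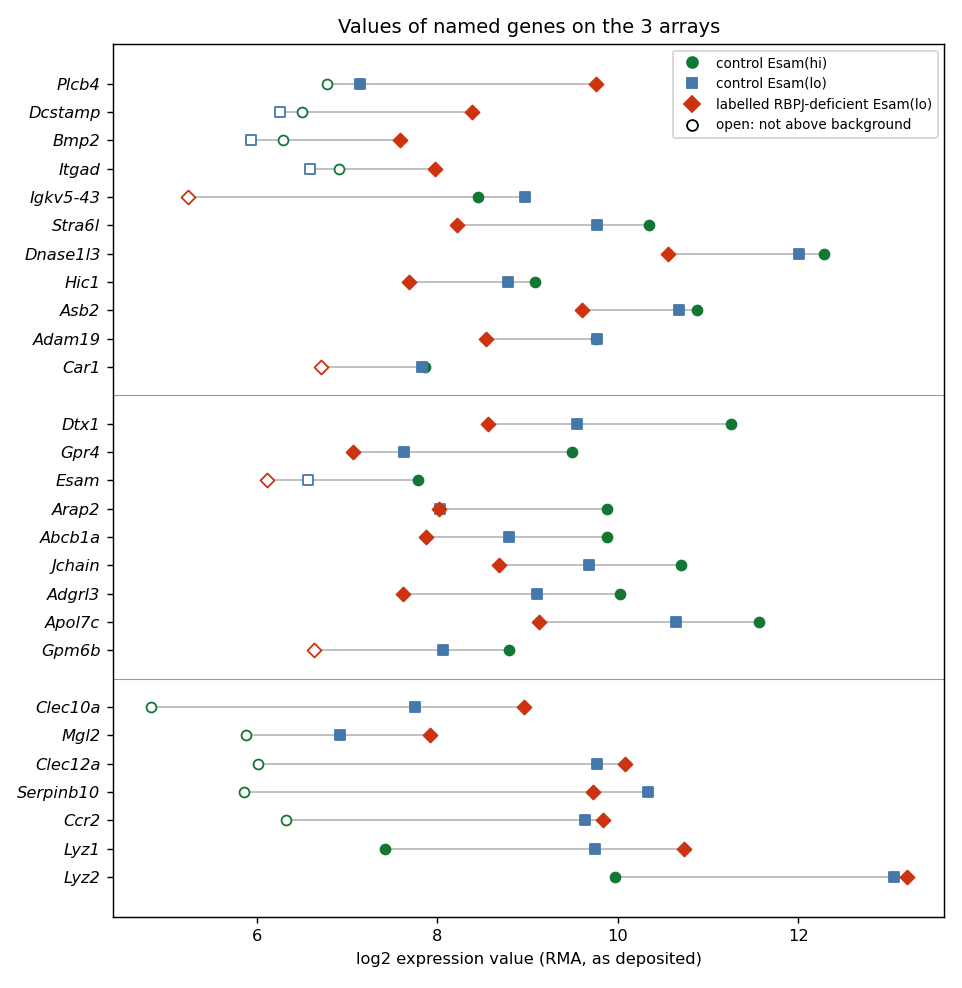
Log2 values as deposited of 27 genes on the control Esam(hi) array (green circles), the control Esam(lo) array (blue squares) and the labelled array (red diamonds); open symbols are not above background. The top block holds the 11 genes for which only the labelled array stands apart, the middle block lower genes and the bottom block higher genes. In the top block the controls lie within 1.5-fold of each other, with Stra6l (10.35 and 9.77) close to that limit. In the bottom block control Esam(hi) is lowest throughout. Control Esam(lo) lies near the labelled array for Clec12a, Ccr2 and Lyz2, below it for Clec10a, Mgl2 and Lyz1 and above it for Serpinb10.

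Notch target genes gave 1 call. Dtx1 encodes Deltex, a ubiquitin ligase that is itself switched on by Notch in lymphocytes and other cells. Its levels of 11.25, 9.55 and 8.56 were high on control Esam(hi), intermediate on control Esam(lo) and lowest on the labelled array. It was 6.49-fold lower on the labelled array than on control Esam(hi), a difference of -2.70 that was -3.26 with the trend removed. It was shared because control Esam(lo) was itself 3.25-fold below control Esam(hi). Its distance from control Esam(lo) was just short of 2-fold before rounding, so it was not among the genes beyond both controls.

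The other targets were smaller. Of 14 Notch target genes on the array 7 were above background; none was 2-fold higher and Dtx1 alone was 2-fold lower, beside 12.8% and 1.17% of all genes tested. Their median difference was -0.03, against 0.30 over all genes, and -0.37 with the trend removed, against -0.03. Hes5, a repressor of the Hes family, read 8.54, 7.99 and 7.95, a difference of -0.60 that reached 2-fold with the trend removed (-1.01). Hes1 read 7.87, 8.66 and 7.91, so its control Esam(lo) value stood above both others. Notch3 read 7.46, 7.10 and 7.01, Myc 8.51, 9.39 and 9.40, and Cd7 11.46, 11.84 and 11.56. Hey1, Hey2, Heyl and Nrarp were below background on every array. Hes1 is named after its values were seen.

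Of 26 Notch pathway components above background, 3 were 2-fold higher and none lower, which is near the share among all genes. Besides Adam10 and Adam17 this was Psenen, a subunit of the gamma-secretase that cuts the receptor inside the membrane, at 10.70, 12.08 and 12.05. None of the 3 was 2-fold higher with the trend removed, and the median over the 26 turned from 0.19 to -0.19. The receptors Notch2 (10.87, 11.40 and 11.50) and Notch4 (7.79, 7.04 and 6.92) were under 2-fold, with differences of 0.62 and -0.87. Lfng, a glycosyltransferase that modifies Notch receptors, was under 2-fold as well, with a difference of 0.77.

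The promoters of Notch-linked and class-defining genes are printed to show where the letters that RBPJ is known to prefer occur in them. Each is the 250 bases before the gene's start in RefSeq on GRCm38.p6, 5′ to 3′ on the gene's strand, and capitals mark TGGGAA or its reverse complement TTCCCA. Dtx1 (chr5:120711670-120711919, minus strand) is the target farthest below, Hes5 (chr4:154960673-154960922, plus strand) the classical target with a smaller difference and Gpr4 (chr7:19212288-19212537, plus strand) the next protein-coding gene of the lower shared class outside multicopy families. Stra6l (chr4:45848566-45848815, plus strand) and Plcb4 (chr2:135659297-135659546, plus strand) represent the genes for which the labelled array alone stood apart, each at the first of 2 annotated starts.
Dtx1: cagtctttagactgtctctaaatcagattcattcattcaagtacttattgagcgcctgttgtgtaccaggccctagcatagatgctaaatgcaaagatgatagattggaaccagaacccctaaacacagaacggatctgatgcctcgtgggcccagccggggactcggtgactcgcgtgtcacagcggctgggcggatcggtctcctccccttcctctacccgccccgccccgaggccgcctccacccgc
Hes5: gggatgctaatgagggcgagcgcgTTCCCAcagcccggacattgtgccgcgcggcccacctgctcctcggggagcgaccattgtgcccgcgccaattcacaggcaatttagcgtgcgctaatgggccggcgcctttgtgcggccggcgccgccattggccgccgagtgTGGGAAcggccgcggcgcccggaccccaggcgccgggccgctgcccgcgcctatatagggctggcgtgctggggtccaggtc
Gpr4: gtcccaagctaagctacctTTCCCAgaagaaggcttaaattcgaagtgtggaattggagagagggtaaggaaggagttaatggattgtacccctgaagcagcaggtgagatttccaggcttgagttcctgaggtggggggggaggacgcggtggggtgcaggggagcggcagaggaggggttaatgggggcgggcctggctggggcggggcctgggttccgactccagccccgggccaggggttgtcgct
Stra6l: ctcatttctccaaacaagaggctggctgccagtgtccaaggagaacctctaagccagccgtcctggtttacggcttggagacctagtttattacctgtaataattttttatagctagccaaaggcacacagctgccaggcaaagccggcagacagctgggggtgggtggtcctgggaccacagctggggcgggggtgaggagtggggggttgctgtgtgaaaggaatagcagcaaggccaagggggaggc
Plcb4: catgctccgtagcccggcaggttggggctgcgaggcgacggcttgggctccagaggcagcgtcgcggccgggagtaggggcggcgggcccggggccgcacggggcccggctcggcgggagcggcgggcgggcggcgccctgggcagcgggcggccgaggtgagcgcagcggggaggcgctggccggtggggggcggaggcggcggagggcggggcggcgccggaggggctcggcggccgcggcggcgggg
Hes5 held TTCCCA at position -226 and TGGGAA at -82 from its start, and Gpr4 held TTCCCA at -231. The other 3 stretches held neither. Past the other annotated start of Stra6l, which is not printed, TGGGAA lay at position 41. In windows from 250 bases before to 50 after each start, TGGGAA on either strand occurred in 25.6% of all 32851 windows and 21.7% of 9630 windows of tested genes. It occurred in 22.5% of 1220 windows of the higher genes and 24.0% of 75 windows of the lower genes. The longer GTGGGAA, which contains TGGGAA, occurred in 532 of 9630 windows of tested genes (5.52%), 70 of 1220 of the higher genes (5.74%) and 6 of 75 of the lower genes. Of the lower genes 64 of 110 had a window, and of the higher genes 992 of 1203. These are matches of letters in a short window and say nothing of binding.

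Gpr4, a receptor that senses extracellular protons, was the other leading gene of the shared lower class. It read 9.49, 7.63 and 7.07, high on control Esam(hi) alone. It was 5.35-fold lower on the labelled array, a difference of -2.42 and of -2.80 with the trend removed. The related proton sensor Gpr65 read 10.03, 10.28 and 10.64 and was not called. The positioning receptor gene Gpr183 read 10.74, 10.70 and 10.74, and P2ry6, a nucleotide receptor, 8.60, 10.58 and 10.25.

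The shared lower genes next in size had varied roles. Abcb1a, the drug efflux pump P-glycoprotein, read 9.88, 8.80 and 7.88 (3.99-fold lower), and Sash1, a signalling scaffold, 10.20, 9.14 and 8.25 (3.85-fold lower). Both stepped down from control Esam(hi) to control Esam(lo) to the labelled array. Arap2 read 9.88, 8.03 and 8.02 (3.61-fold lower), with the Esam(lo) arrays level. Esam itself was at least 1.89-fold lower and Frmd5 (8.19, 6.98 and 6.64) at least 2.5-fold lower. Tnf, the inflammatory cytokine, read 10.74, 9.29 and 9.74 and was 2.01-fold lower, with the labelled array between the controls. Of 14 cytokine genes above background, 3 were higher and Tnf alone was lower, beside 12.8% and 1.17% of all genes tested; with the trend removed 1 was higher and 2 were lower, Tnf and Il12b (8.79, 8.16 and 7.99).

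Several of the lower shared entries are not single protein-coding genes in the usual sense. Srsy (10.77, 8.99 and 8.21) is a multicopy Y-linked gene with 19 probe sets, and Ifnz (9.77, 7.98 and 7.89) belongs to the interferon cluster of similar genes, so shared probes make both uncertain. Rmrp (12.95 on control Esam(hi) and 3.87-fold lower on the labelled array) and Rprl2 (11.65, 10.30 and 10.13) are RNA components of ribonuclease complexes or copies of them. Snord118, a small nucleolar RNA named after its values were seen, read 11.52, 8.82 and 8.82. Of 42 small nucleolar RNA genes tested, 1 was higher and 6 were lower, and of 60 microRNA genes none was higher and 11 were lower (median -0.63), beside 12.8% higher and 1.17% lower among all genes tested. After removal of the trend 11 and 24 of them were lower, beside 2.85%. For the microRNA genes the control difference had a median of -0.53. Of the 110 lower genes, 35 were not protein-coding or of unknown type, against 9 of the 1203 higher genes.

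Genes lower on the labelled array and in neither class included 3 with large steps on both sides. Apol7c, an apolipoprotein L, read 11.56, 10.65 and 9.13, Adgrl3, the adhesion receptor latrophilin 3, 10.03, 9.11 and 7.62, and Gpm6b, a membrane glycoprotein of the proteolipid family, 8.80, 8.06 and 6.63. All 3 were highest on control Esam(hi) and lowest on the labelled array, which was 5.38-fold, 5.31-fold and at least 3.8-fold below it. The labelled array was also 2.87-fold, 2.8-fold and at least 2.27-fold below control Esam(lo). Their control difference was under 2-fold as deposited, and with the trend removed all 3 entered the shared class. Slc12a2, an ion cotransporter, read 9.56, 9.20 and 8.21, and Trpm2, a calcium-permeable channel, 9.13, 8.47 and 7.69. Ston2, an endocytic adaptor, read 9.80, 8.80 and 8.54.

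A list of 20 genes of Esam-high CD11b+ DCs above background had 9 members 2-fold lower and none higher, with a median of -0.89. Among all genes tested 1.17% were lower and 12.8% higher, with a median of 0.30. With the trend removed 12 of the list were lower and its median was -1.38, beside 2.85% and -0.03 over all genes tested. The list was compiled with results of these arrays known, so its direction is no independent evidence. Its members that did not pass were Cd4 (9.83 on control Esam(hi) and 9.92 on the labelled array), Irf4, Sirpa, Clec4a4 (8.60, 8.98 and 8.98) and Ltb (9.85, 9.92 and 9.85), among others. Cd4, Irf4, Clec4a4 and Sirpa, which mark CD4+ CD11b+ DCs, were within 1.36-fold on the compared arrays.

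Several genes of the shared higher class encode surface receptors. Clec10a, a lectin that binds galactose-type sugars on glycoproteins, read 4.83, 7.75 and 8.96. It was below background on control Esam(hi), clear on control Esam(lo) and highest on the labelled array, which was at least 3.47-fold above the first and 2.31-fold above the second. Because the control Esam(hi) value is below background, only these bounds are known for the first fold. The neighbouring gene of the same lectin type, Mgl2, had the same order of arrays, 5.88, 6.92 and 7.92, with a fold of at least 1.69; the genes are similar, and probes could share signal. Of 6 genes above background in the list of MGL, DC-SIGN and mannose receptor lectins, 4 were 2-fold higher and none lower. Among all genes tested the shares were 12.8% and 1.17%. Cd209a, a DC-SIGN homologue, read 9.63, 12.01 and 12.05, and Ly75, an endocytic receptor of other DCs, 8.20, 7.32 and 7.57.

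Further lectins were high on both Esam(lo) arrays. Clec12a, an inhibitory receptor for uric acid crystals, read 6.02, 9.77 and 10.08, at least 7.51-fold higher on the labelled array. Clec7a (Dectin-1, a receptor for fungal glucans) read 9.36, 11.56 and 11.69, and Clec4e (Mincle) 5.71, 9.03 and 9.04. Clec4a3 read 6.69, 10.13 and 10.30. In each the control Esam(hi) array was the low one and the Esam(lo) arrays were within 1.24-fold of each other. In the Dectin-1 cluster 3 of 5 genes above background were 2-fold higher (median 2.33), and in the Dcir and Dectin-2 cluster 3 of 7 (median 0.74). With the trend removed the counts were the same, 3 and 3, and the medians 1.86 and 0.48. All genes tested gave 12.8% as deposited and 4.44% with the trend removed.

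Monocyte genes formed the group with most calls. Of 21 monocyte effector genes above background 18 were 2-fold higher and none lower, beside 12.8% of all genes, with a median of 1.96; with the trend removed 14 were higher, beside 4.44%, with a median of 1.44. Lyz1 read 7.42, 9.75 and 10.73 (9.91-fold higher) and Lyz2, the macrophage form of lysozyme, 9.97, 13.06 and 13.20 (9.42-fold higher). These lysozymes are close copies whose probes can share signal. Lyz1 was 1.98-fold higher on the labelled array than on control Esam(lo), whereas Lyz2 was 1.1-fold higher.

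Ccr2, the receptor that draws monocytes from bone marrow into blood, read 6.32, 9.64 and 9.84 and was at least 6.38-fold higher. The matrix genes Fn1 (7.62, 11.12 and 10.97) and Thbs1 (8.12, 10.94 and 11.60) were 10.2-fold and 11.1-fold higher. Csf1r, the receptor for macrophage colony-stimulating factor, read 8.62, 11.67 and 11.31 (6.47-fold higher). For Fn1 and Csf1r the labelled array lay between the controls, and for Ccr2 and Thbs1 beyond control Esam(lo). Other leading genes were Wfdc17 (8.11, 11.81 and 11.91; 13.9-fold higher), the adhesion receptor Adgre4 (6.74, 10.53 and 10.45; at least 9.73-fold), the serpin Serpinb10 (5.86, 10.34 and 9.73; at least 5.93-fold) and Ly6a2 (7.46, 10.48 and 10.94; 11.1-fold).

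Genes of patrolling monocytes were fewer. Of 14 above background 7 were 2-fold higher (median 1.00), and 4 with the trend removed (median 0.51). The shares among all genes tested were 12.8% and 4.44%. Ace, angiotensin-converting enzyme, read 7.27, 10.91 and 9.98, with the labelled array 1.91-fold below control Esam(lo). Cx3cr1, which carries the reporter, read 8.32, 9.58 and 9.58, 2.4-fold higher but under 2-fold with the trend removed (0.71). Among macrophage identity genes 5 of 15 were higher, such as C1qb (7.42, 9.06 and 9.06), and Mertk, Tlr4, Marco and Timd4 were below background on every array.

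Receptors and ligands of inflammation were shared as well. Of all genes tested 12.8% were 2-fold higher, and 4.44% with the trend removed. Of 6 Fc receptor genes above background 4 were 2-fold higher (median 1.30), led by the inhibitory receptor gene Fcgr2b (7.20, 10.12 and 10.07; 7.31-fold). Of 12 chemokine genes 6 were higher (median 1.5, and 1.12 with the trend removed), among them Ccl9 (7.03, 9.73 and 10.26; at least 8.54-fold) and Cxcl9 (7.29, 10.11 and 10.36; 8.39-fold). Ccl9 and Cxcl9 were low on control Esam(hi) and highest on the labelled array. Of 15 genes of Toll-like receptors and adaptors 6 were higher, with Ly96 (6.40, 8.86 and 9.44), the partner of Tlr4, at least 4.84-fold, while Tlr4 itself was below background. With the trend removed 3 of the Fc receptor genes and 5 of the Toll-like receptor genes were 2-fold higher. Ms4a genes (5 of 6 higher, median 1.74) and the Ly6 list (6 of 6, median 1.72) had few members without a call, beside 12.8% of all genes. With the trend removed 4 and 3 of them were called, beside 4.44%. The Ly6 list also counts Ly86 and Ly96, which are not of the Ly6 family, and Ly96 is counted with the Toll-like receptors too. The Ms4a and Ly6 families hold close copies, which makes single members uncertain.

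Degradative and lipid genes followed. Of 23 genes of lysosomal proteases and hydrolases 13 were 2-fold higher and none lower (median 1.15), beside 12.8% and 1.17% of all genes, for example the cathepsin gene Ctsb (9.34, 11.13 and 11.05) and the acid lipase gene Lipa (8.70, 10.30 and 10.42). With the trend removed 5 were higher (median 0.75), beside 4.44%. Of 19 lipid handling and ABC transporter genes 10 were higher and Abcb1a alone was lower. Abca9 read 6.29, 9.49 and 9.49, and Plin2, which coats lipid droplets, 7.26, 9.33 and 9.60. Cybb, the catalytic subunit of the phagocyte oxidase, read 11.15, 12.62 and 12.80. It was the 1 called gene among 6 in a list of oxidase genes that also counts the proton channel gene Hvcn1. That share is near the 12.8% of all genes.

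**Figure D4:**
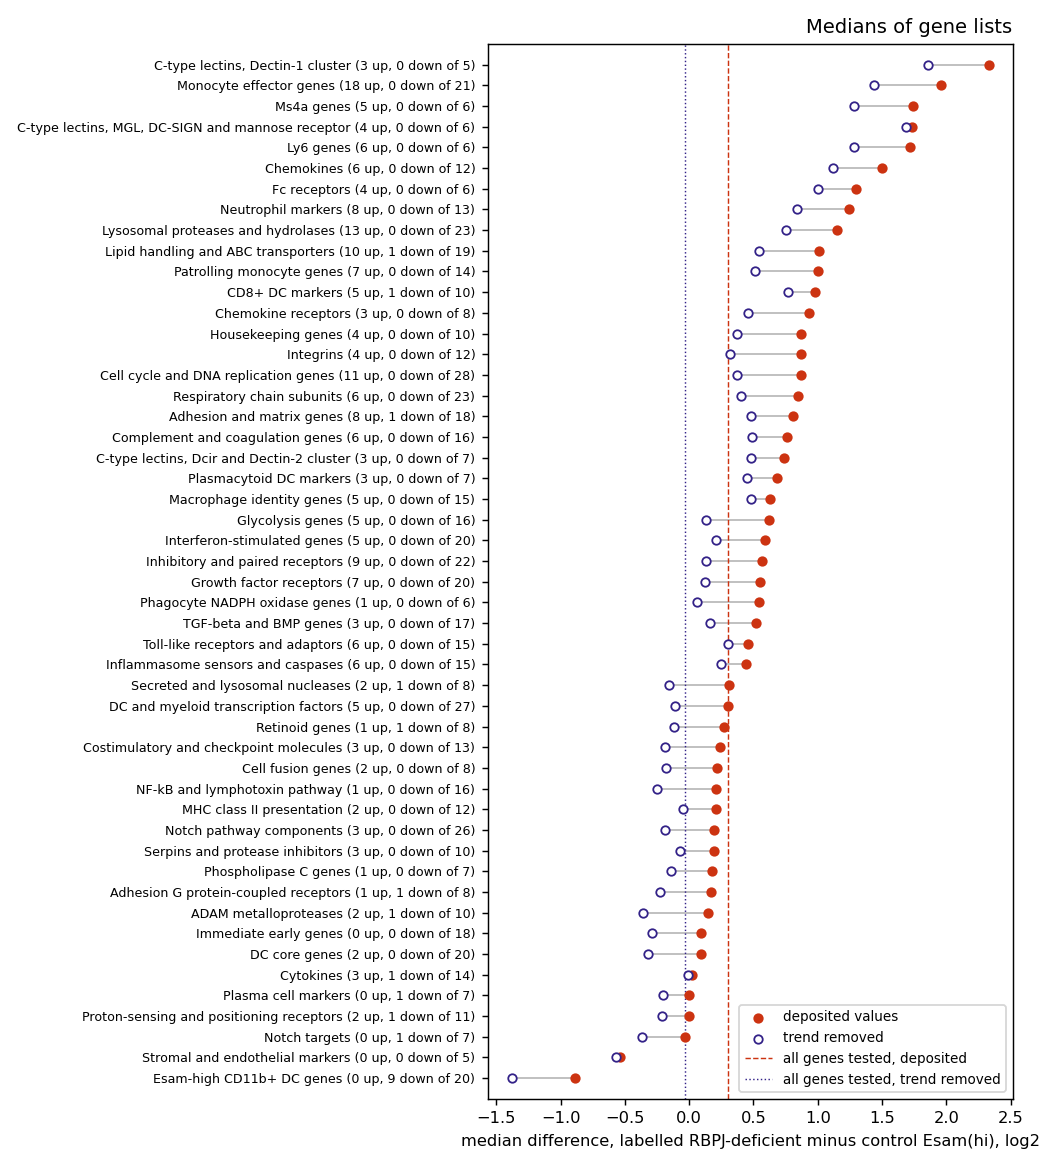
Median log2 difference, labelled array minus control Esam(hi) array, for each gene list with at least 5 members above background, as deposited (filled) and with the level trend removed (open); the lines give the medians over all genes tested, 0.30 and -0.03. The counts after each name are 2-fold calls on the deposited values; lectin, monocyte, Ms4a and Ly6 lists lie farthest right and the Esam-high DC list farthest left.

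Several broad lists lost most of their calls once the trend was taken out. All 10 housekeeping genes had higher values on the labelled array, 4 of them 2-fold (median 0.87); with the trend removed 1 was 2-fold higher (median 0.37). Hprt read 7.48, 9.24 and 9.40 and Actb 14.02, 14.30 and 14.30. Of 28 cell cycle genes 11 were higher (median 0.87), such as Top2a (8.27, 9.32 and 9.61) and Bub1 (6.79, 7.85 and 8.35), and Bub1 alone remained with the trend removed (median 0.37). Respiratory chain subunits had 6 of 23 higher (median 0.85) and then 1 (median 0.40). The 1 call left among 28 cell cycle genes and among 23 respiratory chain genes is near the 4.44% of all genes. The medians of the cell cycle and respiratory chain lists equal or nearly equal that of the housekeeping genes under both scales.

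Antigen presentation and DC identity genes were close together on the compared arrays. Of 12 genes of MHC class II presentation 2 were higher, H2-DMa (10.97, 12.27 and 12.26) and the cathepsin gene Ctss (10.22, 11.60 and 11.59), a share near the 12.8% of all genes, and neither was called with the trend removed; the median went from 0.21 to -0.05. Of 20 DC core genes 2 were higher, and the median of 0.09 became -0.32 with the trend removed, when Ccr7 was the 1 lower gene. Ccr7, the receptor that leads DCs toward T cells, read 12.48, 11.73 and 11.79. Among 13 costimulatory and checkpoint genes 3 were higher, including Tnfsf9 (7.74, 9.71 and 9.87). With the trend removed 3 of these 13 were lower, among them Cd86 (12.18, 11.35 and 11.48) and Cd274 (10.85, 10.54 and 10.09), which are named after their values were seen. None of 18 immediate early genes, which respond to handling of cells, was 2-fold apart either way.

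Transcription factors of DCs and myeloid cells included 5 higher genes of 27 and no lower one, a share not far from that of all genes (12.8% and 1.17%). Zeb2 read 8.58, 10.14 and 10.45 (3.67-fold higher), Spib 8.09, 9.28 and 9.80, Irf8 8.58, 10.29 and 10.07, and Tcf4 8.34, 9.55 and 9.62. All were low on control Esam(hi) and higher on both Esam(lo) arrays, and Zeb2 and Spib kept the call with the trend removed. Batf3, a factor of CD8+ DCs, read 9.16, 9.03 and 8.69 and was 2-fold lower only with the trend removed (-1.02).

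Markers of other cell types were read beside these results. Of all genes tested 12.8% were 2-fold higher and 1.17% lower, and with the trend removed 4.44% and 2.85%. Of 13 neutrophil markers above background 8 were higher (median 1.24). With the trend removed 4 were higher and 1 was lower. S100a8 read 8.35, 10.53 and 10.65, and the granule protein genes Ltf (9.27, 10.56 and 10.89), Camp (9.36, 10.50 and 10.74) and Lcn2 (10.80, 12.25 and 12.26) were higher too. The granule enzyme genes Mpo (9.28, 8.31 and 8.74) and Elane (8.95, 8.60 and 8.74) were under 2-fold as deposited. The median level over the list was 8.35, 8.60 and 8.74, and its part in the monocyte result was not tested. Of 10 CD8+ DC markers above background 5 were higher and 1 was lower (median 0.98), and 5 were higher and 2 lower with the trend removed. The higher ones were Clec9a (6.15, 9.20 and 9.20), Cd24a, Cd36, Ifi205 and Naaa, while Cd8a, Xcr1 and Itgae were below background throughout. Of 4 natural killer genes above background 2 were higher, Klrd1 (9.46, 10.60 and 10.60) and Klrk1 (6.56, 8.74 and 8.60), of which Klrk1 stayed called with the trend removed, and Ncr1, Klrb1c, Gzma and Prf1 were below background on all 3 arrays. Of 3 B cell genes above background Cd79b was higher (8.20 on control Esam(hi), 9.29 on the labelled array, 2.12-fold; none was higher and 1 lower with the trend removed), and Cd79a, Ms4a1, Pax5 and Ebf1 were below background throughout. Of 7 plasmacytoid DC markers above background 3 were higher (median 0.68), and 2 with the trend removed. The part of these cell types in the other differences was not tested. Of 5 stromal and endothelial genes above background none was 2-fold apart.

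Immunoglobulin genes were lower on the labelled array. All 4 kappa variable segments above background with a probe set of their own were 2-fold lower (median -2.19), while their control difference had a median of -0.54. Probe sets that name several immunoglobulin genes, left out of the counts, did not all divide in that way. Those read here were picked for being 2-fold below both control arrays, so their direction was set in advance. Several of them had the larger step between the controls. Kappa variable segments read 12.78, 8.78 and 7.07 on 1 of these, and 11.66, 7.7 and 6.4 on another, which also names another gene. Igha and a heavy chain variable segment read 12.51, 8.19 and 6.78. Ighg3, Igha and heavy chain variable segments read 12.19, 9.75 and 8.21, and 11.16, 9.81 and 8.56. Lambda chain probe sets had no larger step there, at 10.71, 9.74 and 8.72, and 7.76, 9.38 and 6.56. Jchain, the chain that joins secreted IgM and IgA, read 10.70, 9.68 and 8.68 and was 4.06-fold lower, stepping down across the arrays in that order. Of 7 plasma cell markers above background Jchain alone was called; Sdc1 and Tnfrsf17 were below background on every array, and Xbp1 read 9.87, 10.43 and 10.43. The part of plasma cells in the immunoglobulin difference was not tested.

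Sex-linked genes also set the labelled array apart. Xist, the RNA of the inactive X chromosome, read 11.13, 11.13 and 12.09, and the Y-linked genes Eif2s3y and Kdm5d read 7.47, 8.36 and 7.02, and 7.20, 7.55 and 6.82. Xist was highest and both Y-linked genes lowest on the labelled array, none of these 3 being 2-fold from control Esam(hi). Sry, on the Y chromosome, read 8.52, 7.54 and 7.42 and was 2.14-fold lower, with the Esam(lo) arrays close together. The mix of sexes in each pool is not given in the labels, and its part in other differences was not tested.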

How the data were processed

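The assay was the Affymetrix Mouse Gene 1.0 ST array, with 1 array for each of 3 sorted populations. The authors deposited log2 values, 1 for each probe set and array, made with RMA in Affymetrix Expression Console, per the submitters' processing notes. The versions, and which arrays entered 1 normalization, are not stated there. RMA corrects for background, brings the distributions of arrays together and summarises each probe set by median polish, which can give exactly tied values. Of 35556 probe sets, 21789 named 1 gene in the platform annotation and were used; 21698 of these were found by Entrez number in a gene table of GRCm38.p6. A gene with several probe sets (999 of 19938) took the one brightest on average over 3 arrays.

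Genes tested were those above background on at least 1 of the compared arrays. The level trend was a lowess curve (span 0.3) of the difference on the mean of 3 arrays, fitted over genes above background (Python 3.11.15, statsmodels 0.14.6, pandas 2.3.3, numpy 2.4.6); the steps were tested on simulated data. No test, standard deviation or p-value was computed. Precision is limited by the number of arrays. Replicate animals were pooled, so nothing measures their spread.

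Named genes were all 11 genes for which only the labelled array stood apart, shared genes a further 2-fold apart, the 12 shared genes and the 6 of neither class farthest apart in each direction, the sort and comparison markers, and up to 5 members of each of 58 gene lists. Provisional symbols, small RNAs, immunoglobulin segments and chemosensory receptors were left out of the ranked parts. Also named after their values were seen were Dtx4, Gpr183, Ltb, Actb, Irf4, Zbtb46, Flt3, Cd4, Batf3 and the genes at the threshold. The comparison, the lists (941 of 1016 entries on the array) and the rules were chosen with earlier results of these data known. Alternatives changed scaling, filter, threshold, probe set rule and class limits.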

Additional observations from a re-analysis of the deposited data

Results flagged for a closer look

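Among 13767 probe sets that the annotation gives no gene or several genes, which entered no comparison, 30 were at least 2-fold higher on the labelled array than on both control arrays and above background there. All 30 name no gene, and in the opposite direction 5 probe sets without a gene and 7 with several were 2-fold below both control arrays. For comparison, 5 genes with a single name were 2-fold above both controls and 12 below. All 7 probe sets with several genes name immunoglobulin genes, 1 of them together with another gene. Single values are open to the noise of 1 array, and what the probe sets without a gene detect was not tested.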

How the results depend on the processing

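Of 175 named genes that were called, none was called in the opposite direction under the scaling, filter and probe set alternatives. Counts of higher and lower genes were 1203 and 110 on the deposited values, 417 and 268 with the level trend removed, 535 and 324 with quantile normalization, 3014 and 528 at 1.5-fold and 257 and 20 at 3-fold; centring on medians gave 67 lower. A curve on the mean of the compared arrays, an alternative chosen after seeing the data, gave 440 and 289. Shared higher and lower genes numbered 977 and 57, then 306 and 187 (trend removed), 422 and 224 (quantile), 2764 and 372 (1.5-fold), 175 and 7 (3-fold) and 31 lower (centred). Genes apart on the labelled array alone, 4 higher and 7 lower, became 17 and 19 at 1.5-fold and 2 and 1 at 3-fold. The higher ones were 1 above the 75th percentile, 2 counted against background and 1 with controls within 1.2-fold; the lower ones were 4 with quantile normalization, 11 with controls within 2-fold and 3 within 1.2-fold. Genes of neither class, 222 and 46, became 107 and 76 (trend removed), 109 and 96 (quantile), 80 and 12 (3-fold), 29 lower (centred) and 137 lower (1.5-fold). The filters and thresholds change counts by construction; the cause of the change with scaling was not tested.

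Of these genes 116 remained called with the trend removed, 123 with quantile normalization, 173 with centring and 160 when counted against background. Scaling moved the median over all tested genes from 0.30 to -0.03 (trend removed and quantile) or 0.42 (centred). No paired analysis was possible because each group has 1 array and the labels give no replicate numbers. No array could be left out for the same reason. Dim genes limit the folds: for 271 of 1203 higher and 30 of 110 lower genes the dimmer array was not above background, so only a bound is known.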
